A study of Homo sapiens with 12 samples.

Results

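Receptors through which lymphocytes sense cytokines were followed in 2 B-cell lymphoma lines exposed to chidamide, an inhibitor mainly of class I histone deacetylases. The set held 10 genes, namely IL7R, IL2RA, IL2RB, IL4R, IL6R, IL10RA, IL21R, IFNGR1, IFNGR2 and IFNAR1, out of 26364 in the count table. They were taken by gene symbol, and all 10 were among the 15087 genes that passed the filter on low counts. The groups were cells labelled JeKo-1 with 4 µM chidamide, cells labelled JeKo-1 with vehicle, Granta-519 cells with 4 µM chidamide and Granta-519 cells with vehicle. Exposure lasted 12 h in all 4 groups, and the medium was RPMI1640 with fetal bovine serum. Each group held 3 libraries of polyadenylated RNA, with 12873642 to 16592694 counts per library. Both names belong to cell lines derived from mantle cell lymphoma, a cancer of B cells. Since the labels do not state that replicates came from separate cultures, p-values here reflect only how far the libraries of a group lie apart, and part of that may be technical.

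These receptors work as pairs or trios of chains that hold Janus kinases (JAKs) on their inner ends. When a cytokine joins the chains, the kinases phosphorylate STAT transcription factors, which enter the nucleus and switch on target genes. IL2RA, IL2RB, IL7R, IL4R and IL21R all act with the common gamma chain, IL2RG, which binds JAK3. IL6R signals through IL6ST (gp130), IL10RA through IL10RB, and the interferon chains IFNGR1 with IFNGR2 and IFNAR1 with IFNAR2. In B cells, interleukin 4 and interleukin 21 steer class switching and plasma cell formation, while IL7R is known from B-cell precursors and T cells and IL2RA from activated lymphocytes.

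The promoters of 5 of the receptors are shown because their genes gave the contrasting responses described after them: IL2RA was near 0 without the drug and rose in both lines, IL7R and IL6R were nearly silent in a single untreated line, IL4R moved in opposite directions and IFNGR1 rose in both. Each is the 250 bases before the start of transcription in RefSeq (build GRCh38.p14), read 5′ to 3′ on the gene's strand. Capitals mark matches on either strand to any of 7 motifs: the interferon-gamma activated site TTCNNNGAA, the STAT6-type site (TTC and GAA with 4 bases between), the interferon response core (GAAA and GAAA with 2 bases between), the AP-1 site TGANTCA, the GC box GGGCGG, the E-box CACGTG and a kB-type site (GGGA and CC with 4 bases between). Overlapping matches were each counted.
IL2RA, chr10:6062368-6062617, minus strand: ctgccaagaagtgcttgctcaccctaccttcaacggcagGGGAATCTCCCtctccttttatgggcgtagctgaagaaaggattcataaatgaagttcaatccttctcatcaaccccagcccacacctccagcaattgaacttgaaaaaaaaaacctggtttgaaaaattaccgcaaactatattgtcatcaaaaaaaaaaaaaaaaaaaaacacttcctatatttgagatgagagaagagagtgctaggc
IL7R, chr5:35856641-35856890, plus strand: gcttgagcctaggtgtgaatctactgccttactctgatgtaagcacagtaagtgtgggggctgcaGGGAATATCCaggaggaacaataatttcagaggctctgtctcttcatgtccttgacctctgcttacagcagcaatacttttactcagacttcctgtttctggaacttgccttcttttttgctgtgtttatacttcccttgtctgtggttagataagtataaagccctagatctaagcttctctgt
IL6R, chr1:154405093-154405342, plus strand: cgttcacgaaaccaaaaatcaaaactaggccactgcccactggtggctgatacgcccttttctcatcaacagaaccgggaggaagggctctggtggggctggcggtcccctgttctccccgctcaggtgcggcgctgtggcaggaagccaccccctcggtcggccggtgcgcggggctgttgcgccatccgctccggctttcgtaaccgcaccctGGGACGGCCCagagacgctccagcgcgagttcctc
IL4R, chr16:27313724-27313973, plus strand: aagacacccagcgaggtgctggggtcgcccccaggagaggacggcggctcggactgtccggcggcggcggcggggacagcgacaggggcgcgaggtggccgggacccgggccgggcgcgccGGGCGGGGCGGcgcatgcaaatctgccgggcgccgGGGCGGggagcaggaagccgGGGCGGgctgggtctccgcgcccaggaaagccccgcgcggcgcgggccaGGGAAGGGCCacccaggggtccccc
IFNGR1, chr6:137219386-137219635, minus strand: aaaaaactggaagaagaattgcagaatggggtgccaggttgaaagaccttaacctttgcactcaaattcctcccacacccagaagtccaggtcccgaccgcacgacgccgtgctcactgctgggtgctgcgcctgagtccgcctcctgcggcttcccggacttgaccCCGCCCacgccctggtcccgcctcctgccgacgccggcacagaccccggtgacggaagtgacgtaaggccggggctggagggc

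RefSeq promoters matched 9 of the 10 receptor genes. The IL2RA window held 2 overlapping kB-type matches, 210 and 211 bases before the start, and the IL7R window held 1, 185 bases before it. IFNGR2 held 4 such matches, and IL4R, IL6R and the other listed start of IFNGR1 held 1 each, so 6 of the 9 genes had the motif. It was present in 22.6% of all 35116 promoter windows of the same length. IFNGR1 and IFNAR1 each had more than a single listed start, so this share of windows is not the same measure as the count of genes. The IL4R window held 4 GC boxes and IFNGR2 held 5, a motif found in 42.6% of all windows. IFNAR1 held 2 at a single listed start and the IFNGR1 window shown held 1, and no other of the 9 genes held it. No window of these 9 genes held the interferon-gamma activated site (6.57% of all windows), the STAT6-type site (5.38%), the interferon response core (3.02%) or the E-box (6.34%). The AP-1 letters (6.57% of all windows) stood in IL10RA, 73 bases before the start. A match describes letters in this window and is not a binding site.

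The windows also differed in base composition. No CG dinucleotide occurred in the IL7R and IL21R windows, and the observed over expected CG ratio was 0.141 for IL10RA and 0.308 for IL2RA. It was 0.886 for IL4R, 0.832 for IL6R, 0.926 for IFNGR2 and 0.758 for the IFNGR1 window shown, against a median of 0.558 over all windows. IFNAR1 had 1.03 and 1.12 at its 2 listed starts. The interferon chains thus all had windows above that median, and IL7R, IL21R, IL10RA and IL2RA all had windows below it.

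Before the receptors, a few properties of the libraries bear on every value. SOX11 had no count in any library labelled JeKo-1, and CCND1 had 5 counts in their vehicle group, whereas Granta-519 vehicle libraries averaged 157 CPM of SOX11 and 2114 CPM of CCND1. JeKo-1 cells are known to carry both transcripts, so JeKo-1 stands below for the label alone. Vehicle replicate 2 under that label stood apart most from its group, with a chi-square of 5.63 per gene against replicate 1, where pairs in the other 3 groups gave 1.63 to 3.00. The 10 B-cell markers summed to 10382 to 10731 CPM in treated and 8501 to 9275 CPM in untreated JeKo-1 libraries, and to 12204 to 12638 and 8461 to 8493 CPM in Granta-519. Among them CR2 and CD22 rose and PAX5 and CD79A fell in both lines. In bulk RNA, more cells with a transcript and more transcript per cell cannot be told apart. CPM are counts scaled to TMM-corrected library totals, and p-values come from edgeR's quasi-likelihood test with Benjamini-Hochberg adjustment over all tested genes, threshold 0.05.

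After chidamide, 7 of the 10 receptor genes were higher and 1 was lower in libraries labelled JeKo-1, while all 10 were higher in Granta-519. Over all tested genes, 35.3% were called higher and 31.1% lower in JeKo-1, and 39.6% higher and 31.3% lower in Granta-519. IL2RA had passed the filter only through chidamide libraries and so had to differ. Of the other 9 members, 6 were higher and 1 lower in JeKo-1, and 9 were higher in Granta-519. The 7 genes higher in both lines were IL2RA, IL6R, IL10RA, IL21R, IFNGR1, IFNGR2 and IFNAR1, where 24.1% of all tested genes were higher in both. The median log2 change of the members, IL2RA included, was 0.46 in JeKo-1 and 0.88 in Granta-519, against 0.04 and 0.08 over all tested genes. Without vehicle replicate 2 the JeKo-1 count was again 7 higher and 1 lower. Over all genes, the share of JeKo-1 calls that were higher was 64.9% with upper-quartile scaling and 63.7% with library totals, against 53.1% with TMM.

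**Figure D1:**
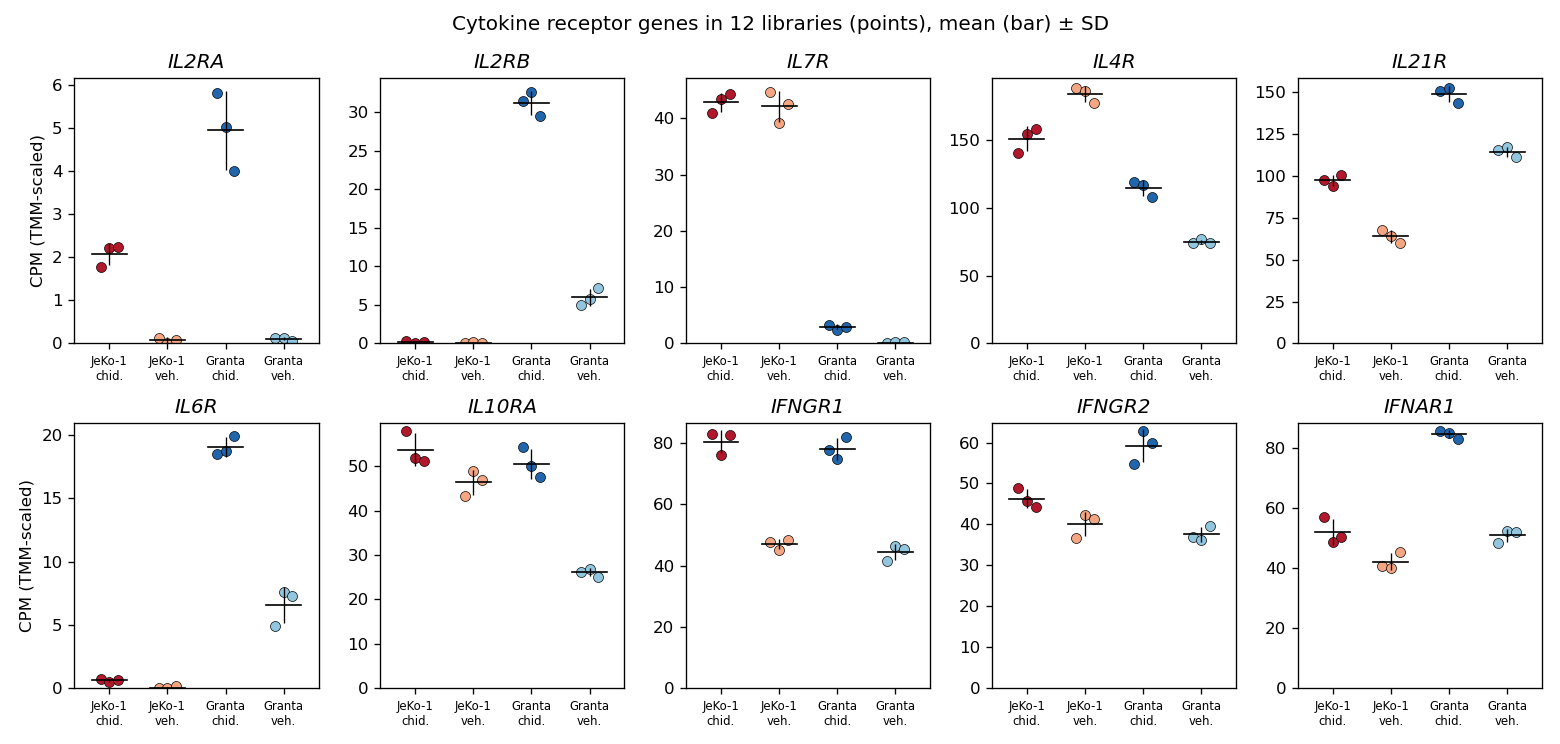
Level of each receptor gene in CPM (vertical axis, TMM-scaled, each panel on its own scale from 0) in the 4 groups, with a point per library, a bar at the mean and a line for the SD (n = 3). IL2RA stood at 1.77 to 5.82 CPM in chidamide libraries and at 0.137 CPM or less in vehicle libraries, and IL4R was lower with chidamide under the JeKo-1 label but higher in Granta-519.

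IL2RA encodes the alpha chain (CD25), which raises the affinity of the interleukin 2 receptor. It was near 0 in untreated cells of each line and higher in treated ones. JeKo-1 libraries had 1.77, 2.21 and 2.23 CPM of IL2RA with chidamide, against 0.137, 0 and 0.0828 CPM with vehicle. In counts over 3 libraries this was 96 against 3, a ratio of 27.4 with a 95% counting interval of 9.11 to 135. Granta-519 had 5.82, 5.01 and 4.00 CPM of IL2RA with chidamide, against 0.130, 0.127 and 0.0666 CPM with vehicle. Every chidamide library was above every vehicle library of its line, and the treated level was still low beside most other members. IL2RA passed the filter only through chidamide libraries, so this separation and the p-values of its change are not independent evidence of a rise. The log2 change was 4.63 ± 0.55 in JeKo-1 (SE; edgeR adjusted p = 9.47e-11) and 5.41 ± 0.41 in Granta-519 (edgeR adjusted p = 3.62e-17). With so few vehicle counts the size is loose: without JeKo-1 vehicle replicate 1 the first value was 5.44.

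IL2RB encodes the beta chain shared by the receptors for interleukins 2 and 15. It separated the lines. Granta-519 had 31.4, 32.6 and 29.6 CPM of IL2RB with chidamide, against 5.02, 5.76 and 7.13 CPM with vehicle, without overlap. This was a log2 change of 2.39 ± 0.12, or 5.23-fold (edgeR adjusted p = 5.72e-24). Libraries labelled JeKo-1 held 5, 1 and 3 counts of IL2RB with chidamide and 0, 3 and 1 counts with vehicle, so the gene was near the limit of detection in both. The ratio of 1.93 had a counting interval of 0.538 to 8.57, and no change was called (edgeR adjusted p = 0.365).

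IL7R encodes the alpha chain of the interleukin 7 receptor. In libraries labelled JeKo-1 it was present at 40.9, 43.4 and 44.2 CPM with chidamide and at 44.6, 39.2 and 42.5 CPM with vehicle. The groups overlapped, and the log2 change of 0.02 had an approximate 95% interval of -0.13 to 0.18 (edgeR adjusted p = 0.842). In Granta-519, IL7R had 49, 35 and 44 counts with chidamide, against 0, 3 and 3 counts with vehicle. That was 3.36, 2.47 and 2.98 CPM against 0, 0.190 and 0.200 CPM, and the ratio of summed counts was 22.6 with a counting interval of 10.1 to 62.8 (log2 change 4.41 ± 0.39; edgeR adjusted p = 4.82e-15). Treated Granta-519 cells were thus far below either JeKo-1 group in IL7R.

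IL4R encodes the alpha chain that binds interleukin 4 and, with IL13RA1, also interleukin 13. It was the single member called lower anywhere after the drug. JeKo-1 libraries had 141, 155 and 158 CPM of IL4R with chidamide, against 189, 186 and 178 CPM with vehicle. Granta-519 had 119, 117 and 108 CPM with chidamide, against 74.1, 76.8 and 73.8 CPM with vehicle. Neither pair of groups overlapped. IL4R fell by 0.29 ± 0.05 on the log2 scale in JeKo-1 (edgeR adjusted p = 8.45e-07) and rose by 0.62 ± 0.05 in Granta-519 (edgeR adjusted p = 1.94e-15).

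IL21R encodes the chain that binds interleukin 21, a signal from helper T cells to B cells. JeKo-1 libraries had 97.4, 94.0 and 100.4 CPM of IL21R with chidamide, against 67.9, 63.9 and 59.8 CPM with vehicle. Granta-519 had 151, 152 and 144 CPM with chidamide, against 115, 117 and 111 CPM with vehicle. The groups were apart in both lines. The log2 change was 0.60 ± 0.05 in JeKo-1 (edgeR adjusted p = 1.37e-14) and 0.38 ± 0.05 in Granta-519 (edgeR adjusted p = 1.74e-09).

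IL6R encodes the chain that binds interleukin 6 before gp130 joins. Granta-519 had 18.5, 18.7 and 19.9 CPM of IL6R with chidamide, against 4.95, 7.59 and 7.26 CPM with vehicle. The treated libraries were all above the untreated ones, by 1.53 ± 0.14 on the log2 scale or 2.88-fold (edgeR adjusted p = 1.13e-14). Libraries labelled JeKo-1 had 12, 7 and 11 counts of IL6R with chidamide, against 0, 0 and 2 counts with vehicle. The ratio was 12.9 with a counting interval of 3.26 to 111, and the call was higher (log2 change 3.48 ± 0.76; edgeR adjusted p = 7.17e-05). All vehicle counts came from replicate 3, without which the fitted change was 6.28.

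IL10RA encodes the ligand-binding chain of the receptor for interleukin 10, which restrains inflammation and supports B-cell growth. Granta-519 had 54.2, 49.9 and 47.5 CPM of IL10RA with chidamide, against 26.2, 27.0 and 25.1 CPM with vehicle; this was 1.94-fold (log2 change 0.95 ± 0.07; edgeR adjusted p = 4.83e-17). In JeKo-1 there were 58.0, 51.9 and 51.2 CPM with chidamide, against 43.2, 48.8 and 47.0 CPM with vehicle. These groups were apart but close, with a log2 change of 0.22 ± 0.07 (edgeR adjusted p = 0.00502). The JeKo-1 call ended without chidamide replicate 1 (edgeR adjusted p = 0.0559, against 9.07e-06 to 0.0559 over all 19 alternatives).

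Among the interferon receptor chains, IFNGR1 binds interferon gamma with high affinity. Of the 10 members, it had the smallest difference between the changes in the 2 lines. JeKo-1 libraries had 82.7, 76.0 and 82.4 CPM of IFNGR1 with chidamide, against 47.6, 45.1 and 48.5 CPM with vehicle. Granta-519 had 77.7, 74.7 and 81.8 CPM with chidamide, against 41.4, 46.5 and 45.3 CPM with vehicle. All 6 treated libraries were thus above all 6 untreated ones. The rise was 1.71-fold in JeKo-1 (log2 change 0.77 ± 0.06; edgeR adjusted p = 1.66e-16) and 1.76-fold in Granta-519 (log2 change 0.81 ± 0.06; edgeR adjusted p = 2.00e-17).

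IFNGR2 is the accessory chain that brings JAK2 to the interferon gamma receptor. Granta-519 had 54.9, 62.9 and 60.0 CPM of IFNGR2 with chidamide, against 36.9, 36.3 and 39.6 CPM with vehicle (log2 change 0.66 ± 0.07; edgeR adjusted p = 2.63e-12). Libraries labelled JeKo-1 had 48.8, 45.7 and 44.2 CPM with chidamide, against 36.8, 42.3 and 41.3 CPM with vehicle. The smaller JeKo-1 change of 0.21 ± 0.07 passed (edgeR adjusted p = 0.00816) but not without vehicle replicate 1 (edgeR adjusted p = 0.0685, against 1.89e-05 to 0.0685 over all 19 alternatives).

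IFNAR1 is the chain of the type I interferon receptor that holds TYK2. Granta-519 had 85.7, 85.1 and 83.2 CPM of IFNAR1 with chidamide, against 48.6, 52.5 and 52.2 CPM with vehicle (log2 change 0.73 ± 0.06; edgeR adjusted p = 2.00e-15). In JeKo-1 there were 57.1, 48.9 and 50.5 CPM with chidamide, against 40.9, 40.2 and 45.5 CPM with vehicle (log2 change 0.31 ± 0.07; edgeR adjusted p = 5.56e-05). Chidamide libraries were above vehicle libraries in each line.

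**Figure D2:**
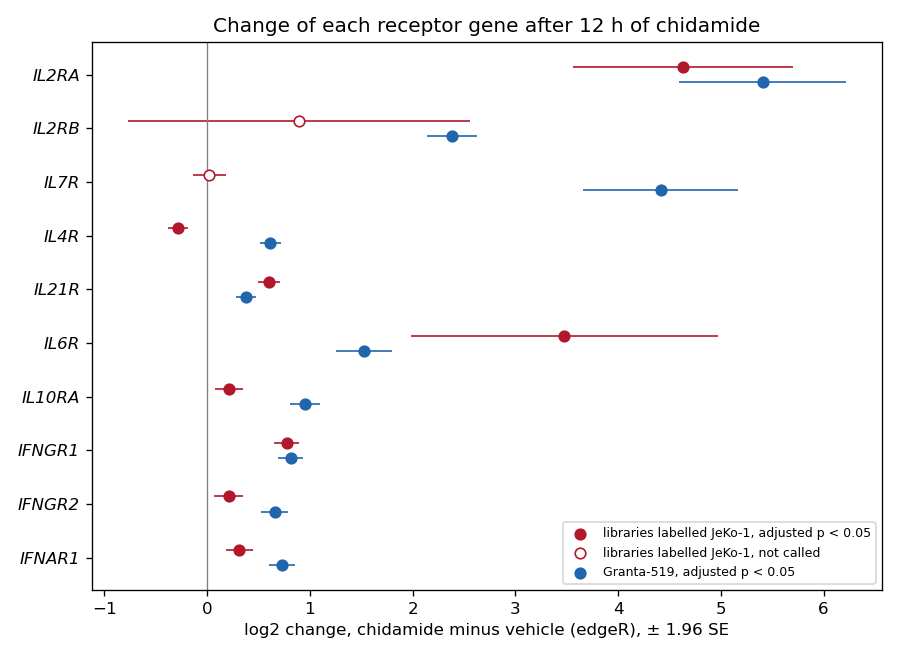
Log2 change of each receptor gene, chidamide minus vehicle (horizontal axis), in libraries labelled JeKo-1 (red, drawn above) and Granta-519 (blue), with lines for the approximate 95% interval. Filled points passed edgeR's adjusted threshold and open points did not, so IL2RB and IL7R under the JeKo-1 label are open and IL4R lies on opposite sides of 0.

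Whether the drug acted differently in the 2 lines was tested directly as a difference of effects, JeKo-1 minus Granta-519. For 5 receptor genes the change was lower in JeKo-1 and for 1, IL21R, it was higher, where 19.5% and 20% of all tested genes were called in those directions. IL7R differed most, by -4.39 ± 0.40 on the log2 scale (edgeR adjusted p = 1.51e-13). That size rests on 6 vehicle counts in Granta-519, where the mean was 0.130 CPM with vehicle and 2.94 CPM with chidamide. In JeKo-1 the means were 42.1 and 42.8 CPM, so the log2 changes are relative to very unlike starting levels. IL4R differed by -0.90 ± 0.07 (edgeR adjusted p = 1.12e-15) and IL10RA by -0.74 ± 0.10 (edgeR adjusted p = 2.42e-08). The accessory and type I interferon chains followed, IFNGR2 at -0.45 ± 0.10 and IFNAR1 at -0.42 ± 0.09 (edgeR adjusted p = 0.000212 and 0.000177).

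IL21R had a difference of 0.23 ± 0.07 (edgeR adjusted p = 0.0116), which no longer passed without JeKo-1 vehicle replicate 3 (edgeR adjusted p = 0.0535, against 5.98e-06 to 0.0535 over 18 alternatives). For IFNGR1 the difference was -0.04, with an approximate 95% interval of -0.21 to 0.13 (edgeR adjusted p = 0.778), and its sign turned under upper-quartile and library-size scaling. IL6R, IL2RA and IL2RB had too few counts under the JeKo-1 label for a firm answer. IL6R gave 1.95 with an interval, before adjustment, of 0.28 to 3.62 and an adjusted p of 0.0630 (edgeR), with 0.0109 to 0.254 over 18 alternatives. Its size was 4.76 without JeKo-1 vehicle replicate 3, 1.37 without replicate 1 and 1.43 without replicate 2. IL2RA gave -0.77 with an interval of -3.25 to 1.70 and IL2RB gave -1.49 with an interval of -3.56 to 0.57, and -2.11 to -0.26 with each library left out in turn, the last without JeKo-1 vehicle replicate 2. Library-size scaling raised the share of higher calls among all genes in this contrast to 70.0%, against 50.6%.

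With vehicle, 3 receptor genes were higher and 4 lower in JeKo-1 than in Granta-519, where 35.5% of all tested genes were higher and 44.3% lower, so the members' share was near that of all genes. IL7R, IL2RB and IL6R were nearly absent from one of the untreated lines, IL2RA was near 0 in both, and the other 6 were expressed in both. IL7R averaged 42.1 ± 2.73 CPM in JeKo-1 and 0.130 ± 0.113 CPM in Granta-519 (SD, n = 3 each). IL4R averaged 184 ± 5.63 CPM in JeKo-1 and 74.9 ± 1.66 CPM in Granta-519, and IL10RA averaged 46.3 ± 2.86 and 26.1 ± 0.921 CPM in the same order. In the other direction, IL2RB averaged 0.103 ± 0.114 CPM in JeKo-1 and 5.97 ± 1.07 CPM in Granta-519, and IL6R averaged 0.0552 ± 0.0957 CPM in JeKo-1 and 6.60 ± 1.44 CPM in Granta-519. IL21R averaged 63.9 ± 4.07 CPM in JeKo-1 and 114 ± 3.04 CPM in Granta-519, and IFNAR1 42.2 ± 2.87 and 51.1 ± 2.15 CPM. These 7 genes had adjusted p-values of 0.000193 or lower by edgeR.

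IFNGR1, IFNGR2 and IL2RA did not pass between the untreated lines. The log2 difference was 0.08 for IFNGR1, with an approximate interval of -0.04 to 0.21, and 0.09 for IFNGR2, with an interval of -0.05 to 0.23. Their signs turned under library-size scaling. For IL2RA, with 3 counts in JeKo-1 and 5 in Granta-519, the interval ran from -2.51 to 1.53. The sizes for IL2RB and IL6R rest on few JeKo-1 counts: the log2 difference of IL2RB was -5.78, but -5.18 without JeKo-1 vehicle replicate 1 and -7.03 without replicate 2, and that of IL6R was -6.82, but -9.63 without replicate 3.

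Receptor genes were put in order of level only on the deposited length-scaled score, which divides counts by library total and by a constant of each gene. In treated JeKo-1 libraries the score was 7.71 ± 0.385 for IFNGR1 and 7.53 ± 0.486 for IL4R (SD, n = 3), whose ranges overlapped. In untreated ones IL4R led at 8.35 ± 0.230 and IFNGR1 followed at 4.12 ± 0.172, without overlap. IFNGR2, IL21R, IL10RA, IL7R and IFNAR1 followed in that order in both JeKo-1 groups. Among these 5, neighbours overlapped for IL7R and IFNAR1 with chidamide and for IL21R and IL10RA with vehicle. IL2RA, IL6R and IL2RB were last, at 0.131 or less with chidamide and 0.00469 or less with vehicle.

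In treated Granta-519 libraries IFNGR1 led at a score of 7.48 ± 0.360, and IL21R, IL4R and IFNGR2 followed at 5.42 to 5.94 with ranges that overlapped from each to the next. In untreated libraries IL21R stood at 4.60 ± 0.121 and IFNGR1 at 4.28 ± 0.246, again with overlap. IL4R and IFNGR2 followed at 3.75 and 3.46. IFNAR1 and IL10RA came after these 4 genes in each Granta-519 group, then IL2RB and IL6R, then IL2RA. IL7R was last in treated Granta-519 libraries, at a score of 0.130 ± 0.0198. In untreated ones it was at 0.00577 ± 0.00501 and overlapped IL2RA at 0.00686 ± 0.00227.

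**Figure D3:**
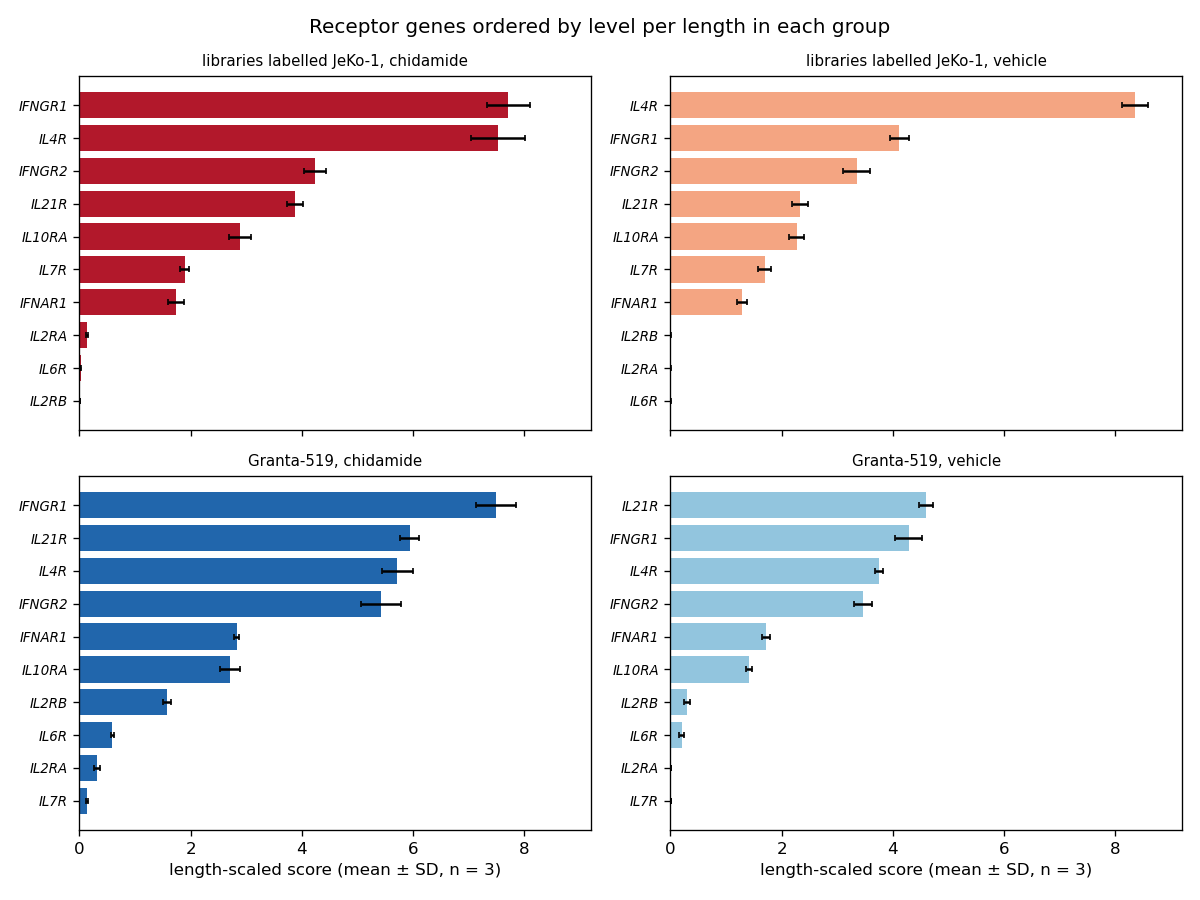
Deposited length-scaled score of each receptor gene (horizontal axis, mean and SD of 3 libraries), ordered from highest to lowest within each of the 4 groups. IFNGR1 is at the top in both chidamide groups at 7.71 and 7.48, IL4R leads in JeKo-1 vehicle libraries at 8.35 and IL21R in Granta-519 vehicle libraries at 4.60.

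The partner chains did not simply follow the ligand-binding ones. Of 7 partner subunits, 4 were higher and 3 lower in JeKo-1 after chidamide, and 4 were higher and 1 lower in Granta-519. Over all tested genes, 35.3% were higher and 31.1% lower in JeKo-1, and 39.6% and 31.3% in Granta-519. IL2RG, the common gamma chain, averaged 126.5 ± 2.57 CPM in treated and 107 ± 2.99 CPM in untreated JeKo-1 libraries, and 168 ± 2.25 CPM in treated and 199.5 ± 0.836 CPM in untreated Granta-519 libraries. It rose by 0.25 ± 0.05 on the log2 scale in JeKo-1 (edgeR adjusted p = 6.28e-06) and fell by 0.25 ± 0.04 in Granta-519 (edgeR adjusted p = 1.28e-06), the reverse of IL4R, and the effects differed by 0.50 ± 0.06 (edgeR adjusted p = 4.61e-09). IL6ST (gp130) rose in both, by 0.91 ± 0.08 and 0.95 ± 0.06, with 31.0 against 16.6 CPM in JeKo-1 and 118 against 61.3 CPM in Granta-519. IL10RB, partner of IL10RA, rose by 1.71 ± 0.12 in JeKo-1 and by 0.62 ± 0.08 in Granta-519.

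IFNAR2, which pairs with IFNAR1, was called in opposite directions. The JeKo-1 fall of 0.22 ± 0.06 on the log2 scale came with 2331 summed counts in each group. It thus rests on library size and scaling, and other scalings were not tested for this gene. Upper-quartile scaling moved the median log2 change of all genes in JeKo-1 to 0.19, against 0.04. IFNAR2 averaged 49.9 ± 1.17 CPM in treated and 58.2 ± 0.589 CPM in untreated JeKo-1 libraries, and 86.9 ± 2.93 CPM in treated and 52.8 ± 2.89 CPM in untreated Granta-519 libraries. The effects differed by -0.94 ± 0.08 on the log2 scale (edgeR adjusted p = 7.67e-14). IL15RA, the alpha chain for interleukin 15, was at 9.29 CPM in treated and 15.8 CPM in untreated JeKo-1 libraries, a fall, and its change in Granta-519 was not called. CRLF2, partner of IL7R in the TSLP receptor, had 418 counts in treated and 58 in untreated Granta-519 libraries and 0 and 4 in JeKo-1. IL13RA1 was at 63.7 and 58.4 CPM in treated and untreated Granta-519 libraries, not called, and had 5 and 0 counts under the JeKo-1 label. The JeKo-1 calls, lower for CRLF2 and higher for IL13RA1, thus rest on 4 and 5 counts.

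Of 10 JAK and STAT genes, 7 were higher and 1 lower in JeKo-1, against 35.3% and 31.1% of all tested genes. In Granta-519, 6 were higher and 2 lower, against 39.6% and 31.3%. The median log2 changes were 0.32 and 0.26, against 0.04 and 0.08 over all tested genes. JAK3, the kinase held by IL2RG, had 0 counts in each of the 6 libraries labelled JeKo-1. In Granta-519 it averaged 52.3 ± 1.49 CPM with chidamide and 42.0 ± 2.73 CPM with vehicle. Against a floor of 3 counts over the group (0.0749 CPM), JAK3 was at least 560-fold lower in JeKo-1 than in Granta-519 with vehicle. Such floors cover counting error only. JAK1, which sits on the ligand-specific chains of the gamma chain family, rose in both lines, to 241 ± 3.46 CPM in treated against 147 ± 4.64 CPM in untreated JeKo-1 libraries, and to 108 ± 2.58 CPM against 44.7 ± 0.571 CPM in Granta-519.

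JAK2 and TYK2 also rose in both lines (edgeR adjusted p of 0.0189 or lower). STAT6, the factor activated by interleukin 4, fell in both, to 240 ± 4.34 CPM in treated against 363 ± 10.4 CPM in untreated JeKo-1 libraries and to 227 ± 7.22 CPM against 269 ± 2.19 CPM in Granta-519. STAT2, which serves the type I interferon receptor, and STAT3, which serves the interleukin 6 and interleukin 10 receptors, rose in JeKo-1 by 0.42 and 0.30 on the log2 scale. In Granta-519, STAT2 fell by 0.36 and STAT3 was not called (edgeR adjusted p = 0.142). The difference of effects passed for both (edgeR adjusted p of 0.000106 or lower).

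**Figure D4:**
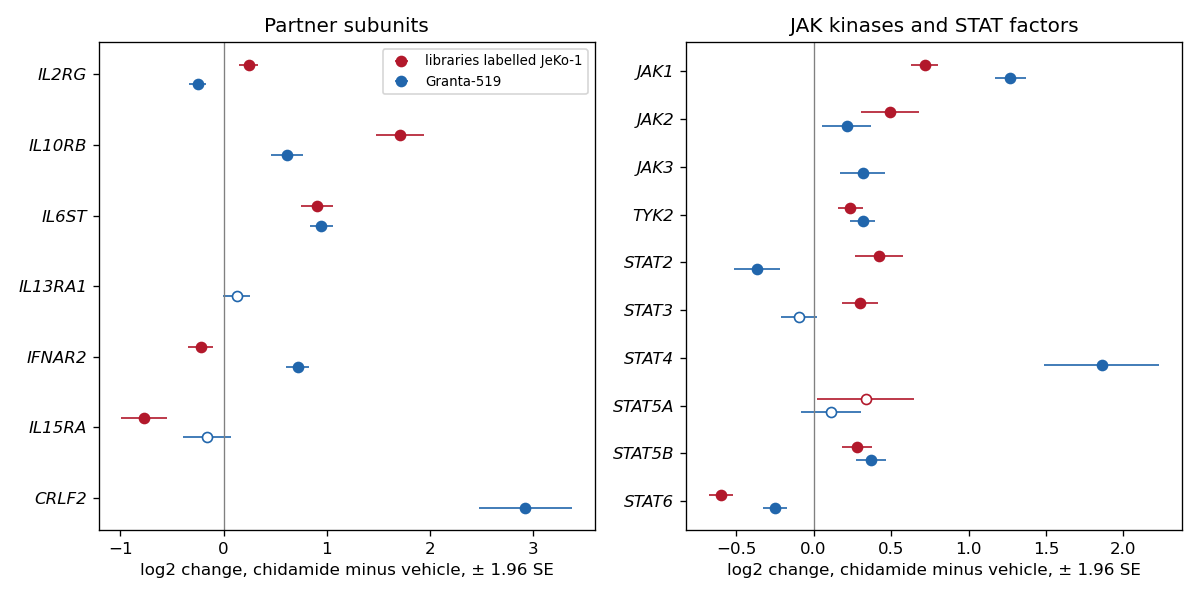
Log2 change, chidamide minus vehicle (horizontal axis), of partner subunits (left) and 10 JAK and STAT genes (right) in libraries labelled JeKo-1 (red) and Granta-519 (blue), with lines for the approximate 95% interval, filled points called and open points not. Genes with fewer than 20 counts in a line are not drawn for that line, JAK3 under the JeKo-1 label among them. IL2RG and IFNAR2 lie on opposite sides of 0 in the 2 lines, and JAK1 lies above 0 and STAT6 below 0 in both.

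Few ligands were transcribed. Of 12 ligand genes 4 passed the filter, of which 2 rose and 1 fell in JeKo-1 and 4 rose in Granta-519. Over all tested genes, 35.3% rose and 31.1% fell in JeKo-1, and 39.6% rose in Granta-519. TSLP, with 129 counts in treated and 33 in untreated Granta-519 libraries, would not have passed the filter without the treated ones. Its rise there was thus favoured by the filter. The other 8 ligand genes were too low to test, so the counts of ligands do not speak for the whole list. IL7 averaged 6.31 ± 0.553 CPM in treated and 1.79 ± 0.383 CPM in untreated JeKo-1 libraries, and 21.4 and 14.7 CPM in Granta-519. IL15 had 61 counts in treated and 0 in untreated JeKo-1 libraries, at least 17.4-fold higher against the floor of 3 counts over the group, and 502 against 151 counts in Granta-519. IL10 fell in JeKo-1, to 9.30 ± 0.854 CPM against 15.2 ± 2.31 CPM with vehicle, and rose in Granta-519, to 4.53 ± 0.301 CPM against 2.33 ± 0.406 CPM. IL21 and IFNA1 had no count in any group.

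Among 18 negative regulators, 6 were higher and 3 lower in JeKo-1, where 35.3% of all tested genes were higher and 31.1% lower. In Granta-519, 8 were higher and 5 lower, against 39.6% and 31.3% of all tested genes. The share of higher calls in JeKo-1 was thus near that of all genes. SOCS1, which blocks JAK activity, rose by 0.61 in JeKo-1 and 0.60 in Granta-519 on the log2 scale. SOCS3, which binds gp130, had 214 counts in treated and 15 in untreated Granta-519 libraries, against 6 and 0 under the JeKo-1 label, and it passed the filter only through treated Granta-519 libraries and so had to differ there. PTPN6, the phosphatase SHP-1, averaged 376 ± 13.7 CPM in treated and 599 ± 19.9 CPM in untreated Granta-519 libraries, a fall, and 79.3 and 58.9 CPM in JeKo-1, a rise. The SUMO ligase genes PIAS3 and PIAS4 fell in both lines. SOCS6 had 0 counts in JeKo-1 and 84.8 CPM in Granta-519 with vehicle.

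Of 18 genes known to respond to these cytokines, 14 were higher and 2 lower in JeKo-1, where 35.3% of all tested genes were higher and 31.1% lower. In Granta-519, 13 were higher and 5 lower, against 39.6% and 31.3% of all tested genes. The median log2 changes were 0.56 and 0.67, against 0.04 and 0.08 over all tested genes. CXCL9 and CXCL10, chemokines induced by interferon gamma, rose in both. CXCL10 averaged 93.3 ± 6.89 CPM in treated and 4.11 ± 0.643 CPM in untreated JeKo-1 libraries, and 54.7 and 24.4 CPM in Granta-519. CIITA, the master regulator of MHC class II, rose by 0.40 and 0.75 on the log2 scale. FCER2 (CD23), induced by interleukin 4 in B cells, rose by 0.24 in JeKo-1 and fell by 0.16 in Granta-519, while CCL17, another gene induced by interleukin 4, fell by 1.07 in JeKo-1 and rose by 0.85 in Granta-519. PIM1, a kinase gene induced by STAT5, rose by 0.24 in JeKo-1 and fell by 0.30 in Granta-519.

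Of 20 further receptors of the same families, 11 were tested. In JeKo-1, 4 were higher and 1 lower, where 35.3% of all tested genes were higher and 31.1% lower. In Granta-519, 6 were higher and 1 lower, against 39.6% and 31.3% of all tested genes. Of these 6, CSF2RA (76 counts in treated and 8 in untreated libraries) and IL5RA (62 and 8) passed the filter only through treated Granta-519 libraries and so had to differ. IL3RA, the alpha chain for interleukin 3, averaged 193 ± 5.40 CPM in treated and 41.0 ± 0.924 CPM in untreated Granta-519 libraries, and 2.91 ± 0.248 and 1.79 ± 0.639 CPM in JeKo-1. IL3RA, CSF2RA and CRLF2 lie in the region that the X and Y chromosomes share, so their counts are uncertain. IL27RA averaged 80.5 ± 2.99 CPM in treated and 98.8 ± 0.391 CPM in untreated Granta-519 libraries, and had 5 and 0 counts under the JeKo-1 label. IFNLR1, the interferon lambda chain, rose by 0.62 in JeKo-1 on the log2 scale, and EPOR fell by 0.79.

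Several members are neighbours in the genome, by the order of genes in RefSeq. IL4R and IL21R lie side by side on chromosome 16, and in JeKo-1 the first fell while the second rose. IFNAR2, IL10RB, IFNAR1 and IFNGR2 follow each other on chromosome 21. All 4 rose in Granta-519, whereas in JeKo-1 IFNAR2 fell slightly, subject to the scaling, and the other 3 rose. IL15RA lies beside IL2RA on chromosome 10 and fell in JeKo-1, where IL2RA rose. No source used here gives the strand setting of the counting, so reads of overlapping genes cannot be told apart. In the table these were IL21R-AS1, with 217 counts over all libraries, which overlaps IL21R, and TMEM50B, with 4713, which overlaps IFNGR2. IFNAR2 and IL10RB also share a readthrough gene in RefSeq, so counts of the pair are uncertain.

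The genes whose log2 CPM followed a receptor most closely over the 12 libraries were noted as a description, since the points fall into 4 groups that share line and treatment. For IL7R these were ICAM5, ASPH and PFKFB2 (Pearson r of 0.999, 0.997 and 0.995), for IL2RA they included HIVEP2 and HERPUD1 (0.992 and 0.990), and for IL4R they included MEN1 and CCDC64 (0.991 and 0.991). ZEB2, PMAIP1 and COL4A5 were nearest to IL6R, at 0.996, 0.996 and 0.995. STK17A, CTNNB1 and FCRL1 were nearest to IFNGR1, at 0.988, 0.987 and 0.986. ADAMTS7 was nearest to IL2RB (0.995), ISG20 to IL10RA (0.992), LILRA4 to IL21R (0.996), RAB11FIP1 to IFNAR1 (0.984) and LRRTM4 to IFNGR2 (0.968). Among the members themselves, IL7R and IL4R (0.967), IL2RB and IL6R (0.960), IL21R and IL6R (0.949) and IL2RA and IFNGR1 (0.943) were each a gene and its closest member.

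IL2RA, IL2RB and IL7R are also T-cell and natural killer cell genes, and some markers of those cells moved with the drug. Their 16 markers summed to 166 to 171 CPM in treated and 49.3 to 50.9 CPM in untreated Granta-519 libraries, of which CD28 made up 140 and 39.4 CPM on average. In JeKo-1 the sums were 8.04 to 10.99 CPM with chidamide and 3.65 to 5.85 CPM with vehicle. Of the 16, 8 were tested, with 3 higher in JeKo-1 and 6 higher in Granta-519, against 35.3% and 39.6% of all tested genes. CD3E had 68 counts in treated and 4 in untreated JeKo-1 libraries, and 13 and 0 in Granta-519, and it passed the filter only through treated JeKo-1 libraries. CD247 had 553 counts in treated and 114 in untreated Granta-519 libraries, and CD8A had 69 and 9. Under the JeKo-1 label CD247 had 15 and 14 counts and was not called. ZAP70 was called in neither line, with 21 counts in treated and 44 in untreated Granta-519 libraries and 3 in each JeKo-1 group. CD8A and CD4 passed the filter through treated Granta-519 libraries and not through untreated ones, so both had to differ there. CD3D, CD3G, CD8B and GZMA had 0 counts in treated and untreated Granta-519 libraries, and CD2, CD8A and CD8B had 0 in both JeKo-1 groups. The 12 myeloid markers, of a lineage that also carries IL6R and IL10RA, summed to 45.8 to 47.2 CPM in treated and 5.22 to 8.89 CPM in untreated JeKo-1 libraries, and to 106 to 114 and 31.3 to 32.5 CPM in Granta-519. Of these 12, 6 were tested, with 5 higher in JeKo-1 and 4 higher in Granta-519, against 35.3% and 39.6% of all tested genes. CSF1R had 411 counts in treated and 7 in untreated JeKo-1 libraries, and 859 and 45 in Granta-519, and ITGAM averaged 24.2 and 2.42 CPM in JeKo-1 and 79.3 and 24.9 CPM in Granta-519. CD33 and MNDA were also called higher in both lines. In JeKo-1, CD33 had 225 counts in treated and 13 in untreated libraries, and MNDA had 35 and 2. In Granta-519, CD33 had 16 and 2 counts, and MNDA had 317 and 96. CD33 passed the filter only through treated JeKo-1 libraries and so had to differ there. LYZ, which also passed only through treated JeKo-1 libraries, had 163 counts there and 14 in untreated ones. In Granta-519 it had 4 and 2 counts and was not called. CD68 was called in neither line, at 3.88 and 3.89 CPM in treated and untreated JeKo-1 libraries and 3.08 and 3.31 CPM in Granta-519. FCGR3A had 0 counts in all 4 groups, and MPO and ELANE had 0 in both chidamide groups. The 10 epithelial and stromal markers summed to 37.1 to 41.0 CPM in treated and 26.2 to 30.3 CPM in untreated JeKo-1 libraries, and to 90.5 to 97.0 and 68.7 to 72.1 CPM in Granta-519. The 6 erythroid and megakaryocytic markers summed to 0.213 to 0.318 CPM in treated and 0 to 0.450 CPM in untreated JeKo-1 libraries. In Granta-519 the sums were 1.22 to 1.64 and 0.316 to 0.467 CPM. ITGA2B, the single one tested, was called higher in Granta-519, with 39 and 11 counts. It passed the filter only through treated Granta-519 libraries and so had to differ there. The part of these cell types in the receptor values was not tested.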

How the data were processed

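The authors deposited whole-number counts per gene symbol for 12 libraries. Per the submitters' processing notes, reads were aligned with STAR to hg19. No source used here gives the version of STAR, the counting tool, the annotation or the strand setting. A second deposited table, named as TPM, holds a length-scaled score whose columns sum to 81790 to 84121. It was used only to order genes by level, and its 6 unnamed columns hold no values.

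Groups and replicate numbers came from the library titles. Counts were tested with edgeR 4.0.16 (R 4.3.3): filterByExpr by group (minimum count 10), TMM, robust glmQLFit with 4 group means over all 12 libraries (8 residual degrees of freedom), glmQLFTest and Benjamini-Hochberg adjustment over 15087 genes. The biological coefficient of variation was 0.0422, so small changes passed. Library sizes for CPM are totals over tested genes. SEs were calculated back from the test's F and are approximate, above all at few counts, and intervals of log2 changes are normal 95% intervals. Ratios of summed counts have exact binomial intervals, which cover counting error only. The code was tested on simulated data. The alternatives were other scalings, no filter, DESeq2 1.42.0, only the groups compared, a replicate block and leaving out each library.

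The members and lists were chosen with earlier results of these data known. The genes named are all 10 members and, without naming every gene so allowed, up to 3 called genes per list, direction and line by size of change, any partner chain, JAK or STAT, and the 3 genes nearest to each member. Others (SOX11, CCND1, SOCS1, SOCS6, CIITA, FCER2, ITGAM, CD4, CD68, LYZ, ZAP70, CD28 in Granta-519, genes at 0 counts, and the second line's value of a gene named for a single line) were chosen after their values were seen. Some genes that the rule would name are not reported here. Sequences are from RefSeq.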

Additional observations from a re-analysis of the deposited data

Results flagged for a closer look

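The drug effect differed between the lines for 6 receptor genes by edgeR's test of the difference itself, JeKo-1 minus Granta-519, on the log2 scale. The values were -4.39 for IL7R, -0.90 for IL4R, -0.74 for IL10RA, 0.23 for IL21R, -0.45 for IFNGR2 and -0.42 for IFNAR1. IL4R was the single member of these 6 that was called in opposite directions, lower in all 3 treated JeKo-1 libraries and higher in all 3 treated Granta-519 libraries than in any vehicle library of the same line. IL7R averaged 42.8 CPM with chidamide and 42.1 CPM with vehicle in JeKo-1, and had 128 counts with chidamide and 6 counts with vehicle in Granta-519.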

How the results depend on the processing

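The number of receptor genes called was 7 to 8 in JeKo-1, 10 in Granta-519, 6 to 7 for the difference of effects and 7 between untreated lines over 18 or 19 alternatives each. Leaving out each library in turn gave 7 to 8, 10, 6 to 7 and 7. Of 747 recalculated log2 changes of members, 729 kept direction and side of the threshold, 3 lost the call, 4 gained it (all IL6R in the difference of effects) and 11 turned in sign, none of them called. The signs turned for IL7R in JeKo-1 without vehicle replicate 2 (-0.016 to 0.079 over the libraries left out); for IL2RA without JeKo-1 vehicle replicate 1 in the difference of effects (-1.31 to 0.022) and without vehicle replicate 2 between untreated lines (-1.29 to 0.040); for IFNGR1 in the difference of effects with upper-quartile scaling (0.0087), library totals (0.095), no filter (0.12) and without Granta-519 vehicle replicate 1 (-0.077 to 0.0076); and between untreated lines with library totals and no filter for IFNGR1 (-0.053 and -0.019) and IFNGR2 (-0.046 and -0.012). The cause was not tested. Upper-quartile scaling moved the median log2 change of all genes in JeKo-1 to 0.19, against 0.04, and library totals moved it to 0.16, against 0.02, in the difference of effects and to -0.27, against -0.13, between untreated lines. The replicate block gave 8, 10, 6 and 7 members called in the same 4 comparisons. Same-numbered libraries deviated together with r of -0.026 to 0.035 and were not each other's best match in every case. These values show no pairing by number, but with 3 libraries per group they cannot exclude it. Depth limits IL2RB, IL6R and IL2RA in JeKo-1 and IL2RA and IL7R in untreated Granta-519, at 2 to 9 counts per group apart from IL6R and IL2RA with chidamide.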
